A study of Homo sapiens with 6 samples.

Results

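The genes that control NRF2, the transcription factor encoded by NFE2L2 that switches on antioxidant and detoxification genes, were followed in the human ovarian cancer line SK-OV3 after PVT1, a long noncoding RNA, was silenced. The set was chosen by function and holds 10 of the 59653 genes in the counts table, those whose symbol is NFE2L2, NFE2L1, KEAP1, CUL3, SQSTM1, BACH1, BACH2, MAFF, MAFG or MAFK. Cells labelled wildtype were transfected with a pool of siRNAs to PVT1 (siPVT1, 3 libraries) or with a pool of scrambled siRNAs (siControl, 3 libraries), and RNA was taken at 48 h from cells of both groups. The comparison asked which genes change when PVT1 is lowered. It rests on 1 cell line and 1 pool for each group. The labels do not say that the libraries came from separate cultures, so the p-values measure only the spread between these libraries, which may be technical.

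NRF2 is made continuously and is held low by KEAP1, an adaptor that presents it to a ubiquitin ligase built on CUL3 for destruction by the proteasome. Oxidants and electrophiles modify KEAP1, and SQSTM1 (p62), an autophagy receptor, competes with NRF2 for it, so that NRF2 builds up, pairs with a small MAF protein (MAFF, MAFG or MAFK) and binds antioxidant response elements. BACH1 and BACH2 pair with the same small MAFs and repress genes through related elements, and NRF2 activity is known in ovarian carcinoma for its link with resistance to chemotherapy.

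Libraries held between 28383171 and 35059576 counts, and the middle library of siControl (31668597) was slightly deeper than that of siPVT1 (29736725). PVT1 itself fell from 3610.5 ± 493 normalized counts (SD, n = 3) in siControl to 2164 ± 151 in siPVT1, by 0.74 on the log2 scale (SE 0.102), and the groups did not overlap. This was a change of -40.1% (edgeR adjusted p = 0.000465). It was under the log2 change of 1 that a call needs, so PVT1 itself was not called. Normalized counts are the deposited counts scaled to a common library size by the TMM factors of edgeR. The replicates of siPVT1 varied more than those of siControl, with a biological coefficient of variation of 14% against 5.01%. Of 10 epithelial and ovarian carcinoma markers, none was at 3 or fewer counts in every library, and their summed level was 27723 to 30303 normalized counts in siControl and 32794 to 36408 in siPVT1. Singly they went both ways, with a median log2 fold change of -0.46: KRT19 (log2 2.28), PAX8 (0.99), KRT18 (0.36) and KRT8 (0.31) rose, and WT1 (-1.03), KRT7 (-0.52) and ERBB2 (-0.44) fell. The other 3, EPCAM (log2 -0.56), MUC16 (-0.66) and CDH1 (-0.47), did not reach an adjusted p under 0.05. They are named here after their values were seen. In siPVT1 replicates 1, 2 and 3, MUC16 was at 179, 581 and 19 counts and CDH1 at 12, 43 and 0. Of 14 markers of other cell types, 5 were at 3 or fewer counts in every library, CD3E was at 0 in all 6, and the summed level was 2759 to 2809 in siControl and 9429.5 to 12002.5 in siPVT1. Most of that sum was CDH5, an endothelial cadherin, at 2008 ± 35 normalized counts in siControl and 9271 ± 1103 in siPVT1 (SD, n = 3). Of the 8 of these markers that were tested, 4 were called higher, against 11.6% of all genes tested, and 1 lower, against 9.86%. The 4 were CDH5 (log2 2.21), PECAM1 (2.97), PDGFRB (1.80) and VWF (1.65), and the 1 was CD14 (-1.44). The part of these markers in the results below was not tested. Fewer cells of a kind and less RNA per cell cannot be told apart in bulk RNA.

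The promoters of the control genes held the letters that NRF2 and BACH1 are known to recognise about as often as all promoters. Sequences from 250 bases before to 50 bases after each start were taken from RefSeq (GRCh38.p14), in which 9 of the 10 genes, all but MAFK, had an entry, with 18 promoters in all. Both strands were searched for TGACNNNGC, the core of the antioxidant response element, for TGAGTCA, the core bound by AP-1 and NF-E2 proteins, and for TGACTCAGC, which overlaps both. The first core was found in 2 of the 18 promoters (11.1%), those of KEAP1 and MAFF, against 13.3% of all 35116 promoters. The second was found in 1 (5.56%), that of BACH1, against 4.95%, and the joint form in 0, against 0.561%. The windows are shown to set the elements of the control genes beside those of 4 genes from the NRF2 target list described further on. They read 5′ to 3′ on the gene's own strand, and capitals mark the matched letters or, where the match lies on the other strand, their reverse complement.
KEAP1, chr19:10502808-10502834: cttttattgTGACACGGCgggcgcccg
KEAP1, chr19:10502785-10502811: cccggctctGCTTAGTCAtggtgacct
MAFF, chr22:38201863-38201889: ttccaggggGCGGGGTCAtacgggggc
BACH1, chr21:29298865-29298889: cggaaggagTGAGTCAcctgaccgc
GCLM, chr1:93909447-93909473: acgatttctGCTTAGTCAttgtcttcc
TXNRD1, chr12:104286921-104286947: tggatttctGCTTTGTCAttctgactc
ME1, chr6:83431171-83431197: ctcctgccaTGACTCAGCgcttctcgc
PIR, chrX:15493290-15493316: ccgcgaagcGCTGAGTCAcggtgaggc

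The second KEAP1 window and the GCLM window carry the same matched letters, and both lie shortly before the start, with the first matched base at -31 in KEAP1 and at -34 in GCLM. In the 26 NRF2 target genes with an entry, 11 of 31 promoters (35.5%) held the first core, 3 (9.68%) the second and 2 (6.45%) the joint form, those of ME1 and PIR. A match describes letters within this window and is neither a bound site nor a cause of any change in level.

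All 10 genes passed the filter on low counts. Of these, 4 were called, at an adjusted p under 0.05 and a change of at least 1 on the log2 scale, against 21.4% of the 19008 genes tested. BACH1 and BACH2 rose (2 of 10, against 11.6% of all genes) and KEAP1 and SQSTM1 fell (2 of 10, against 9.86%). On the adjusted p alone 7 passed, MAFF rising and NFE2L2 and CUL3 falling beside those 4, against 58.4% of all genes, so passing that test set the genes little apart from the rest. The 3 that did not pass were NFE2L1, MAFG and MAFK. The libraries of the groups did not overlap for 8 of the 10 genes, against 66.3% of all genes, being higher in siPVT1 for 3 (against 32.8%) and lower for 5 (against 33.5%). The median log2 fold change was -0.057 over the 10 genes and -0.013 over all genes tested, and the median absolute change was 0.31 against 0.52. With scaling by the total count the median of all genes moved to -0.15.

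**Figure D1:**
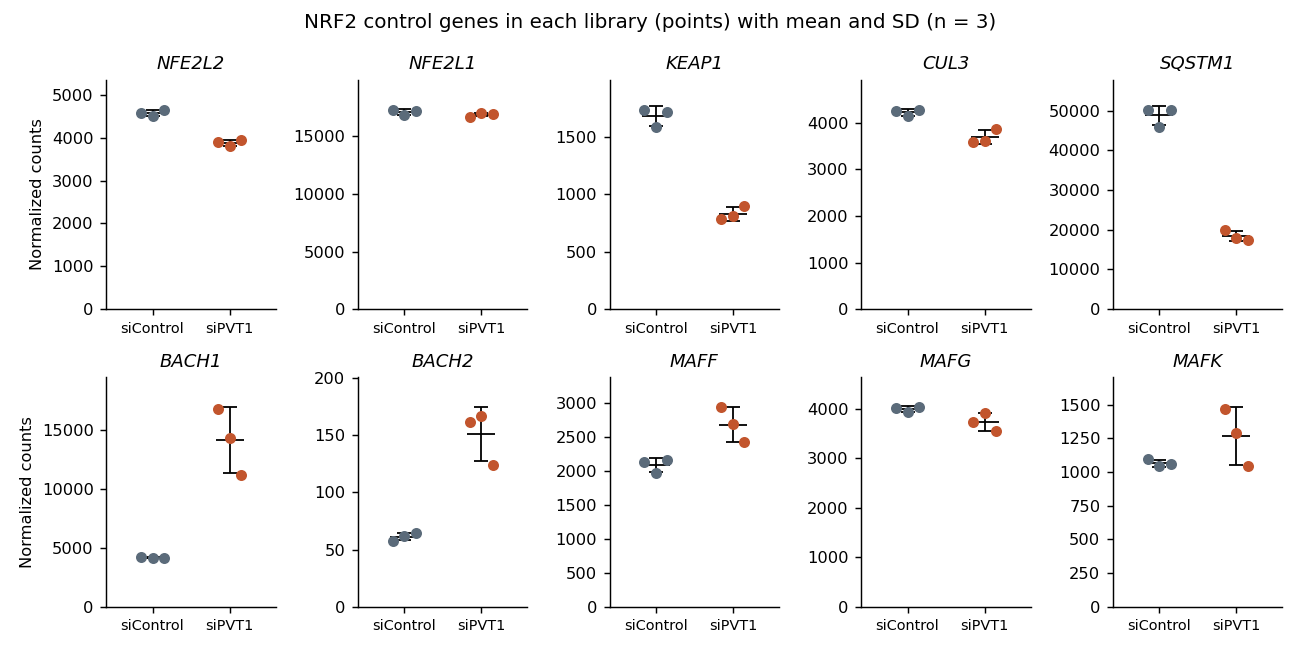
Normalized counts (vertical axes, each starting at 0) of the 10 NRF2 control genes in the siControl (grey) and siPVT1 (orange) libraries, with the mean and SD of 3 libraries as bars. BACH1 and BACH2 are higher and KEAP1 and SQSTM1 lower in every siPVT1 library, while NFE2L1 and MAFK overlap between the groups.

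Among the activators, NFE2L2 (ENSG00000116044, chr2:177218667-177392756, GRCh38, minus strand) was measured at 4575, 4511 and 4654 normalized counts in siControl and at 3903, 3804 and 3940.4 in siPVT1. The siPVT1 libraries all lay below the siControl libraries, with no overlap. The level fell by 0.24 on the log2 scale (SE 0.0489, 95% interval -0.35 to -0.13, edgeR quasi-likelihood test with Benjamini-Hochberg adjustment, adjusted p = 0.00356), a change of -15.2%. NFE2L1 (ENSG00000082641, chr17:48048329-48061545, plus strand), the related factor held in the endoplasmic reticulum that is known for driving proteasome genes, was at 17325, 16822 and 17168 normalized counts in siControl and at 16722, 17054 and 16914 in siPVT1. The groups overlapped, and the log2 fold change was -0.018 (95% interval -0.12 to 0.089, edgeR adjusted p = 0.765), so changes beyond that interval lie outside what these libraries allow under this scaling. Scaled by the total count, NFE2L1 was lower by the same test, with a log2 fold change of -0.15 (edgeR adjusted p = 0.0173).

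KEAP1 (ENSG00000079999, chr19:10486125-10503558, minus strand) was at 1736, 1583 and 1720.1 normalized counts in siControl and at 782, 811 and 901 in siPVT1. All siPVT1 libraries lay far below the lowest siControl library. The mean fell from 1679.7 ± 84.4 to 831 ± 61.8 (SD, n = 3), by 1.01 on the log2 scale (SE 0.0763, 95% interval -1.19 to -0.84, edgeR adjusted p = 2.08e-05). This sits at the fold threshold. Without siPVT1 replicate 1 the log2 fold change was -0.97 and without siPVT1 replicate 2 it was -0.99, and KEAP1 then kept its adjusted p but was not called.

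CUL3 (ENSG00000036257, chr2:224470150-224585397, minus strand), the scaffold of the ligase, was at 4251, 4141 and 4286 normalized counts in siControl and at 3601, 3611 and 3865 in siPVT1. The groups did not overlap, but the change was small, -0.19 on the log2 scale (SE 0.0537, 95% interval -0.32 to -0.070, edgeR adjusted p = 0.0147). Leaving out siControl replicate 1, siControl replicate 3 or siPVT1 replicate 2 took the adjusted p above 0.05, with edgeR adjusted p of 0.0517, 0.0558 and 0.0687.

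SQSTM1 (ENSG00000161011, chr5:179806398-179838078, plus strand), which is also a known NRF2 target, was at 50244, 45992 and 50239 normalized counts in siControl and at 19859.7, 17925 and 17528.5 in siPVT1. Each siPVT1 library was far below each siControl library. The mean fell from 48825 ± 2454 to 18438 ± 1247 (SD, n = 3), a log2 change of -1.40 (SE 0.068, 95% interval -1.56 to -1.25, edgeR adjusted p = 2.99e-06), or -62.2%. Of the 75-base windows of its main transcript, 52.1% also occur in transcripts of the neighbouring gene MRNIP on the other strand, and the strand setting of the counting is not given in the sources used here. MRNIP was at 0.696% to 2.09% of the SQSTM1 level in the 6 libraries.

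BACH1 (ENSG00000156273, chr21:29194071-29630751, plus strand), the haem-sensing repressor, had the largest rise of the 10 genes. It was at 4245, 4161 and 4104 normalized counts in siControl and at 16771, 14335 and 11196 in siPVT1. The siControl libraries were close together, and the siPVT1 libraries were all well above them but spread widely, with replicate 3 the lowest. The mean rose from 4170.1 ± 71.3 to 14101 ± 2795 (SD, n = 3), 3.38-fold, with a log2 fold change of 1.76 (SE 0.133, 95% interval 1.45 to 2.06, edgeR adjusted p = 2.14e-05). No 75-base window of its main transcript occurs in a transcript of another gene.

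BACH2 (ENSG00000112182, chr6:89926528-90296843, minus strand), the related repressor best known from lymphocytes, was scarce. It had 57.8, 61.9 and 64.6 normalized counts in siControl and 162, 167 and 124 in siPVT1, and the groups did not overlap. The mean rose from 61.4 ± 3.43 to 151 ± 23.5, with a log2 fold change of 1.29 (SE 0.157, 95% interval 0.93 to 1.65, edgeR adjusted p = 0.000227). Against siControl, BACH1 stood 2.01, 1.78 and 1.43 higher on the log2 scale in siPVT1 replicates 1, 2 and 3, and BACH2 stood 1.39, 1.44 and 1.01 higher. The smaller shift of replicate 3 was also seen in the median of the other 4072 genes called. That median, in each gene's own direction, was 1.65, 1.57 and 1.41 in the same libraries, while PVT1 was at -0.62, -0.77 and -0.81. Of the control genes called lower, KEAP1 shifted least in replicate 3 (-1.10, -1.05 and -0.90) and SQSTM1 most (-1.30, -1.44 and -1.48). The part of this difference between libraries in the BACH1 and BACH2 values was not tested.

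**Figure D2:**
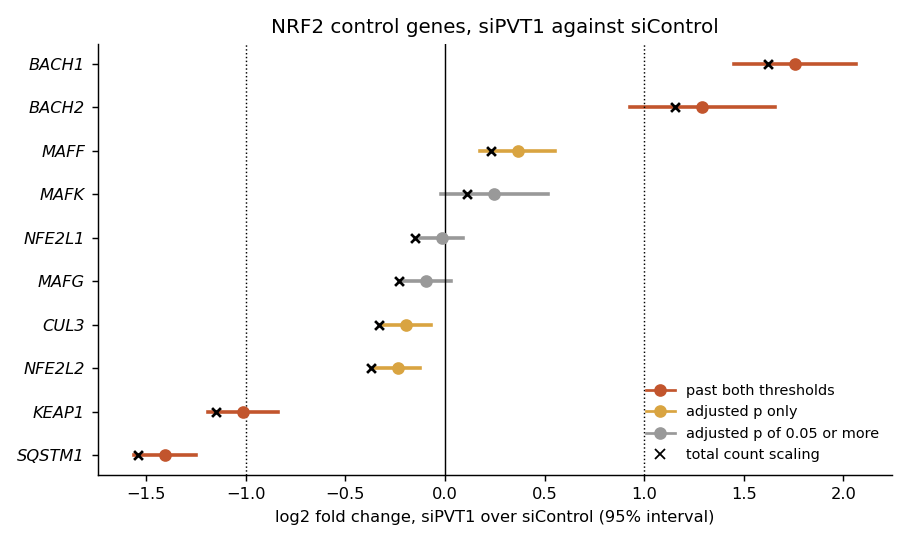
Log2 fold change of each of the 10 genes in siPVT1 against siControl (horizontal axis) with its 95% interval, ordered by size, with crosses for the value under total count scaling. BACH1 (1.76), BACH2 (1.29), KEAP1 (-1.01) and SQSTM1 (-1.40) reach the fold threshold of 1, and the intervals of NFE2L1, MAFG and MAFK include 0.

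The small MAFs, which lack an activation domain of their own and serve activators and repressors alike, did not move together. MAFF (ENSG00000185022, chr22:38200767-38216507, plus strand) was at 2124, 1962 and 2156 normalized counts in siControl and at 2933, 2683 and 2422 in siPVT1. It was higher in every siPVT1 library, with a log2 fold change of 0.36 (SE 0.0809, 95% interval 0.18 to 0.55, edgeR adjusted p = 0.0053). MAFG (ENSG00000197063, chr17:81918270-81927735, minus strand) was at 4022, 3927 and 4025 in siControl and at 3722, 3919 and 3557 in siPVT1. Its groups did not overlap, by a narrow margin between the lowest siControl and the highest siPVT1 library, and the log2 fold change of -0.097 (SE 0.0558, 95% interval -0.23 to 0.032, edgeR adjusted p = 0.172) did not pass the test. Scaled by the total count it was -0.23 (edgeR adjusted p = 0.00748) and passed. MAFK (ENSG00000198517, chr7:1530702-1543043, plus strand) was at 1095, 1042 and 1060.3 in siControl and at 1467, 1291 and 1042 in siPVT1. Its siPVT1 libraries ran from well above the siControl libraries to level with them, and the log2 fold change of 0.25 (95% interval -0.023 to 0.52, edgeR adjusted p = 0.103) did not pass, while without siPVT1 replicate 3 it was 0.38 (edgeR adjusted p = 0.000634).

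The combined small MAF level was 7137.7 ± 179 normalized counts in siControl and 7679 ± 580 in siPVT1 (SD, n = 3), a log2 difference of 0.10 that turned to -0.033 when libraries were scaled by the total count (two-sided exact permutation test, p = 0.3, where 3 libraries against 3 cannot go below 0.1). Per kilobase of transcript, MAFF made up 44.2% ± 0.895 of the pool in siControl and 50.3% ± 0.977 in siPVT1, and MAFG made up 39.8% ± 0.666 and 33.0% ± 2.14. For both shares the groups did not overlap (exact permutation p = 0.1, the smallest possible). The MAFK share was 15.9% ± 0.325 and 16.6% ± 1.43, and overlapped (exact permutation p = 0.5). Of the 75-base windows of the main transcripts, 22.2% of those of MAFK also occur in TMEM184A and 11% of those of MAFF in PLA2G6, both on the other strand, and these neighbours were at 0.447% to 1.56% of the MAFK level and at 3.89% to 5.08% of the MAFF level.

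The ratio of 2 genes within a library does not depend on how libraries are scaled. The ratio of BACH1 to NFE2L2 counts was 0.928, 0.922 and 0.882 in siControl and 4.30, 3.77 and 2.84 in siPVT1. The repressor was thus counted slightly less often than the activator in each siControl library and several times as often in each siPVT1 library. The log2 difference was 1.98 (two-sided exact permutation p = 0.1, the smallest possible). The ratio of KEAP1 to NFE2L2 was 0.380, 0.351 and 0.370 in siControl and 0.200, 0.213 and 0.229 in siPVT1. It was lower in every siPVT1 library, by a log2 difference of -0.78 (exact permutation p = 0.1), since KEAP1 fell by more than NFE2L2 did.

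**Figure D3:**
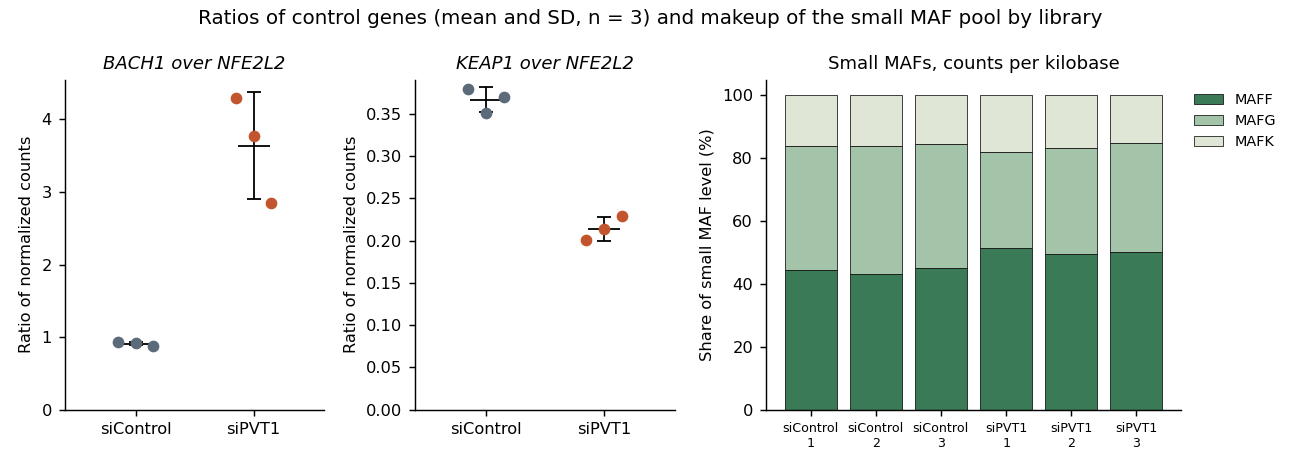
Ratios of normalized counts of BACH1 and of KEAP1 to NFE2L2 in each library (points, with mean and SD of 3 libraries) and the share of each small MAF in their summed counts per kilobase (stacked bars, percent). The BACH1 ratio is 0.882 to 0.928 in siControl and 2.84 to 4.30 in siPVT1, and the MAFF share is larger in each siPVT1 library.

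Levels of different genes were compared as normalized counts per kilobase of the main transcript. In siControl the order was SQSTM1 (17192 ± 864), NFE2L1 (3535 ± 53.2), NFE2L2 (1872 ± 29.3), MAFF (876 ± 43.6), MAFG (789 ± 11), BACH1 (742 ± 12.7), KEAP1 (655 ± 32.9), CUL3 (626 ± 11.1), MAFK (315 ± 7.95) and BACH2 (6.67 ± 0.373). In that order KEAP1 and CUL3 overlapped between libraries, and every other pair of neighbours was separate. In siPVT1, BACH1 (2510 ± 497) moved from the sixth to the third place, above NFE2L2 (1587 ± 28.8) in every library. KEAP1 (324 ± 24.1) moved from the seventh to the ninth place, where it overlapped MAFK (375 ± 63.1). SQSTM1 (6492 ± 439) stayed first and BACH2 (16.4 ± 2.55) last. Per kilobase, BACH1 was at 0.397 ± 0.011 times the NFE2L2 level in siControl and at 1.58 ± 0.321 times in siPVT1.

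**Figure D4:**
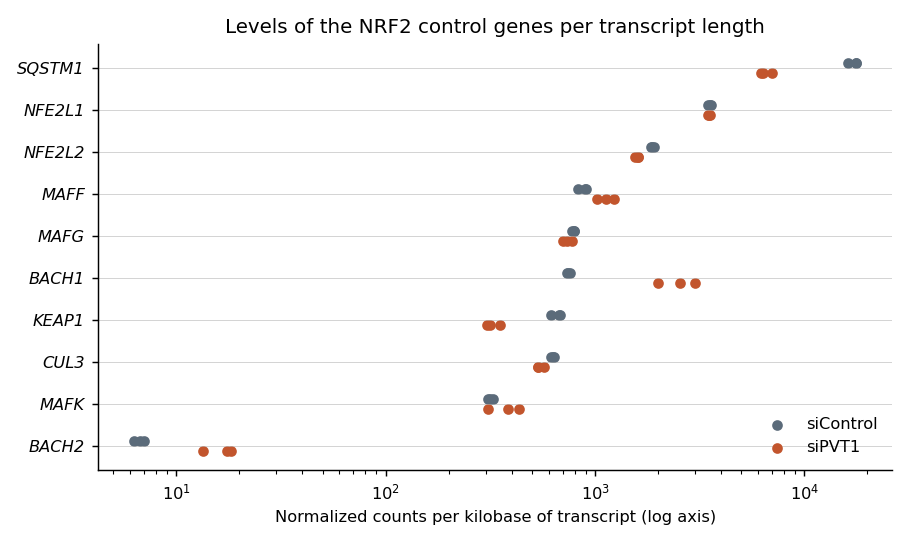
Normalized counts per kilobase of the main transcript (log axis) for the 10 genes in siControl and siPVT1, one point for each library. BACH1 moves from below MAFG to above NFE2L2, and KEAP1 moves to the level of MAFK.

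The genes that NRF2 is known to activate were mostly lower. The list holds 37 genes, of which 36 were tested. It has a median log2 fold change of -0.80 against -0.013 over all genes, with 17 called lower (against 9.86% of all genes) and 0 called higher. On the adjusted p alone 28 fell and 2 rose (against 29.2% of all genes in each direction). The list was drawn up with earlier results of these data known, so these shares describe it and do not test it. AKR1C1 and AKR1C2, both in the list, were reported by the authors as down-regulated in the same comparison. By smallest p-value the leading genes were AKR1C1, an aldo-keto reductase that fell from 14778 ± 655 to 733 ± 85.1 normalized counts (log2 -4.33), OSGIN1 (log2 -3.12), AKR1C2 (log2 -3.17) and SLC7A11, the cystine transporter, which fell from 35803 ± 617 to 3615 ± 637 (log2 -3.31). AKR1C1 and AKR1C2 are near-identical in sequence, and reads may have been split between them. The 2 that rose were IDH1, an enzyme that makes NADPH, from 2455 ± 21.7 to 4905 ± 266 (log2 0.999, just under the fold threshold), and BLVRB, a biliverdin reductase (log2 0.41).

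Genes that BACH1 is known to repress or bind were 11, all tested, and 8 of them (72.7% of these, 21.6% of the NRF2 list) are also in the NRF2 list. HMOX1, haem oxygenase and the best known BACH1 target, was at 2249.6, 2262 and 2313 normalized counts in siControl and at 383, 383 and 517 in siPVT1. It was lower in every siPVT1 library, with a log2 fold change of -2.41 (SE 0.118, edgeR adjusted p = 3.17e-06). GCLM, a subunit of the enzyme that starts glutathione synthesis, had a log2 fold change of -2.25 and NQO1, a quinone reductase, one of -1.59. In all 4 were called lower (against 9.86% of all genes) and 1 higher (against 11.6%), HK2, a hexokinase (log2 2.09). On the adjusted p alone 7 fell and 3 rose (against 29.2% of all genes in each direction), the other two that rose being GAPDH (log2 0.36) and SLC40A1, the iron exporter ferroportin (log2 0.44). The median was -0.60. The list pools genes that BACH1 represses with genes it is known to bind, which need not move the same way. These counts and the median therefore mix both kinds.

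Of the other CNC and large MAF factors, 5 of 6 were tested. NFE2L3, the third CNC activator, rose from 1667, 1794 and 1679.5 normalized counts to 5609, 5794 and 4924 (log2 1.67, SE 0.0758, edgeR adjusted p = 2.29e-06). MAF rose from 4.13 to 5.54 normalized counts in siControl to 16.8 to 36.5 in siPVT1 (log2 2.48, edgeR adjusted p = 0.00103), at a low level. The other 3 did not pass. 

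**Figure D5:**
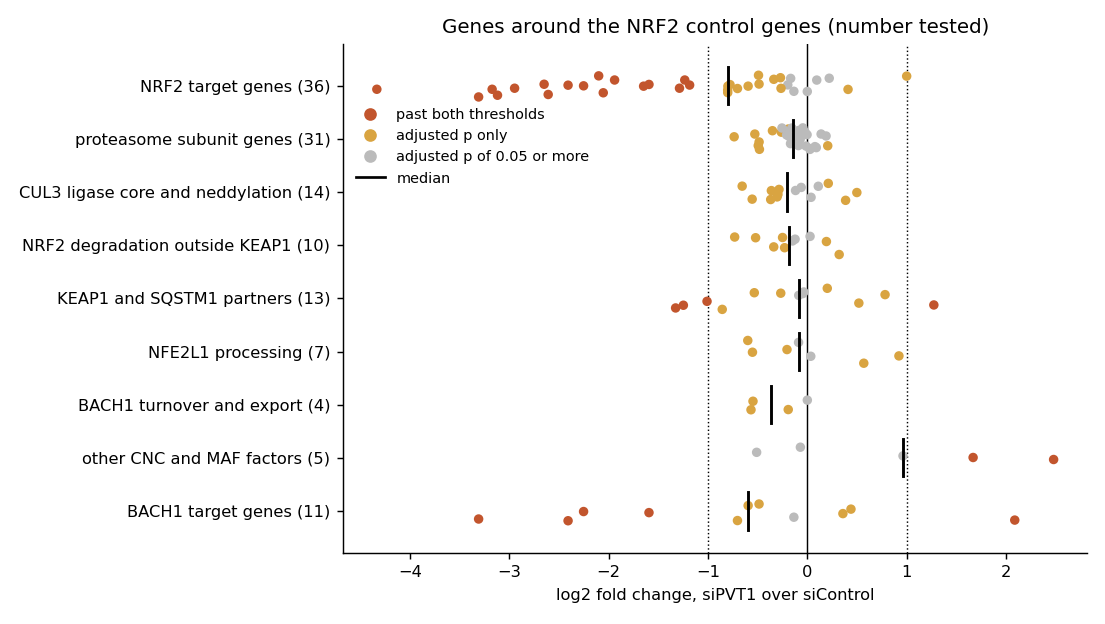
Log2 fold change in siPVT1 against siControl for each tested gene of the lists of genes that act with or downstream of the NRF2 control genes (points, coloured by the thresholds passed), with the median of each list as a bar and the fold threshold as dotted lines. NRF2 target genes have a median of -0.80 and proteasome subunit genes one of -0.14.

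A list of 14 genes covered the CUL3 ligase core, neddylation, which activates cullins, and the signalosome, which reverses neddylation. Of these, 0 were called (against 21.4% of all genes). On the adjusted p 3 rose and 7 fell, against 29.2% of all genes in each direction (median -0.20). RBX1, the RING subunit of the ligase, was 0.50 higher on the log2 scale and NEDD8, the modifier itself, 0.38 higher, while COPS8 (log2 -0.66) and COPS3 (log2 -0.56), of the signalosome that removes it, were lower. Of 10 genes that serve NRF2 degradation outside KEAP1, 0 were called, 2 rose and 5 fell (median -0.19), against the same shares. By smallest p-value CUL4A (log2 -0.73) and CUL1 (log2 -0.52) came first among those that fell and DCAF11 (log2 0.32) among those that rose.

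Of 13 genes linked to KEAP1 or SQSTM1, 1 was called higher (against 11.6% of all genes) and 3 lower (against 9.86%). On the adjusted p 4 rose and 6 fell (against 29.2% in each direction, median -0.087). The count called lower was 2 without a filter on low counts and without siPVT1 replicate 1 or 2. GABARAPL1, an autophagosome protein that SQSTM1 binds, rose from 1230.1 ± 40.9 to 2971 ± 339 normalized counts (log2 1.27). NBR1, a related autophagy receptor, rose by 0.52 on the log2 scale, opposite to SQSTM1. SESN2, a stress protein that binds both, fell from 2865 ± 28.7 to 1207 ± 120 (log2 -1.25), and PGAM5, a mitochondrial phosphatase that binds KEAP1, fell from 1849 ± 12.8 to 916 ± 223 (log2 -1.01). The other gene called lower was MCM3, a replication protein that binds KEAP1 (log2 -1.33), named here after its value was seen.

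Of 7 genes that process NFE2L1, 0 were called (against 21.4% of all genes), and on the adjusted p 2 rose and 3 fell (against 29.2% in each direction, median -0.089). SEL1L, of the machinery that takes proteins out of the endoplasmic reticulum, rose by 0.92 on the log2 scale and DDI2, the protease that cleaves NFE2L1, by 0.57, while NGLY1, which removes its sugars, had a log2 fold change of -0.60. Of 31 proteasome subunit genes, 0 were called (against 21.4% of all genes). On the adjusted p 1 rose (PSMA2, log2 0.20) and 8 fell, against 29.2% of all genes in each direction, and 22 did not pass (median -0.14). By smallest p-value PSMB4 (log2 -0.48) and PSMD6 (log2 -0.53) came first among those that fell. Of 4 genes of BACH1 turnover and export, 0 were called (against 21.4% of all genes). On the adjusted p 0 rose and 3 fell, against 29.2% of all genes in each direction, and 1 did not pass (median -0.37). Those that fell were FBXO22 (log2 -0.57), a ligase subunit that degrades BACH1, RBCK1 (log2 -0.55) and XPO1, the nuclear exporter (log2 -0.19).

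The genes whose pattern over the 6 libraries was most like that of BACH1, among 1142 of similar level, were CDCP1 (root mean square difference 0.0388 on the centred log2 scale), LAMA5 (0.0759) and NRIP1 (0.0853). For NFE2L2, among 2667 genes, they were GTF3C1 (0.0185), KDM2A (0.0208) and BFAR (0.0208). These values describe likeness of level over 6 libraries of 2 groups and nothing more.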

How the data were processed

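Per the methods and the submitters' processing notes, the authors sequenced mRNA libraries, aligned single-end 75-base reads with STAR 2.7.3a to GRCh38.p13 (GENCODE) and counted them with Salmon 0.14.1. The table the authors deposited holds Salmon's estimated counts for each symbol, given in whole numbers and not normalized. Such counts do not tell the isoforms of a gene apart, and the strand setting is not given in the sources used here.

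From these counts, the quasi-likelihood test of edgeR 4.0.16 in R 4.3.3 was applied to all 6 libraries after TMM scaling, with the siRNA as the only term and Benjamini-Hochberg adjustment over 19008 genes. Each of these reached 5 normalized counts in 3 or more libraries. A call needed an adjusted p under 0.05 and a log2 change of 1 or more in size. The SE is the size of the log2 change over the root of the test's F. The test was checked on simulated data. Single values were compared by two-sided exact permutation. Gene positions and main transcripts came from GENCODE on GRCh38. The members and lists were chosen with earlier results of these data known. All 10 genes and PVT1 are named, and from each list at most the 4 with the smallest p-values in each direction. Likeness was sought among genes within 2-fold of the member's level. GCLM, TXNRD1, ME1 and PIR were chosen for the printed windows after their matches were seen.

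Replicate numbers were not used to pair the libraries in the main test. Alternatives were DESeq2 1.42.0, its size factors, total count scaling, no filter, filterByExpr, the replicate number as a block, a test against a 2-fold change and each library left out.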

Additional observations from a re-analysis of the deposited data

How the results depend on the processing

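Under the alternatives, 430 recomputed values either kept their direction and, where tested, their side of the adjusted p threshold, or were counts within 1.5 times the reported one. A further 17 counts moved by more, 3 values passed the adjusted p threshold only under the alternative, 4 lost it and 1 turned direction. Tested against a 2-fold change, 1957 of 4076 genes, and 1 higher (BACH1) and 1 lower (SQSTM1) of the 10 NRF2 control genes, were called. With each library left out in turn the 10 genes gave 1 to 2 calls lower, KEAP1 dropping out without siPVT1 replicate 1 or 2, and BACH1 kept a log2 fold change of 1.62 to 1.91, SQSTM1 of -1.46 to -1.36, KEAP1 of -1.07 to -0.97, BACH2 of 1.22 to 1.43 and NFE2L2 of -0.26 to -0.22. CUL3 was at -0.18 without a filter (edgeR adjusted p = 0.0648) and at -0.22 to -0.17 with a library left out, and MAFK at 0.13 to 0.38. With total count scaling NFE2L1 was at -0.15, MAFG at -0.23 and the combined small MAF level at -0.033, each lower by the shift of all genes under that scaling. Of the NRF2 target genes 1 (IDH1) was called higher without a filter, and 0 to 1 with a library left out. Of the epithelial markers 1 to 2 were called higher and 0 to 1 lower with a library left out, and of the markers of other cell types 0 were called lower with DESeq2, filterByExpr or no filter and 0 to 1 with a library left out. That gene was CD14, at 3.32, 2.19 and 2.80 normalized counts in siPVT1. The replicate block gave 3919 genes called and changed no call of the 10 genes. Same-numbered libraries had correlations of their deviations of -0.0323, 0.0202 and 0.000725. These lay within the range of libraries with different numbers, -0.0368 to 0.041. With 3 libraries in each group, such values cannot show whether same-numbered libraries shared a culture or a batch. Causes other than the shift were not tested.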
